A study of Homo sapiens with 8 samples.

Results

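The genes described here encode the nuclear subunits of oxidative phosphorylation (OXPHOS), the respiratory chain and ATP synthase of the mitochondrial inner membrane. They were taken from the gene table by symbol: protein-coding genes outside the mitochondrial chromosome with the symbol patterns of complexes I to V, plus CYC1, CYCS and UQCC1 to UQCC3. The rule used no measured value. It found 92 of the 58735 genes in the table, which holds 19938 protein-coding genes outside the mitochondrial chromosome. By complex these were 37 genes of complex I, 4 of complex II, 10 of complex III with CYC1, 16 of complex IV and 21 of complex V, with cytochrome c (CYCS) and 3 complex III assembly factors. NDUFA4, first described in complex I, was counted with complex IV, where it is now placed.

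The series asked whether vesicles from macrophages carry working microRNAs to intestinal epithelial cells. The recipient cells were Caco-2, a human colorectal carcinoma line that can form an epithelium like that of the small intestine, labelled wild type. They were given either phosphate-buffered saline (3 libraries, titled untreated) or M2-exo, exosomes of THP-1 cells (3 libraries). THP-1 is a monocytic leukaemia line, and M2 is the usual name for alternatively activated macrophages. The labels file Caco-2 under the cell type "stem cells" and give no dose, no treatment time and no origin of the replicates. The p-values below therefore measure only the spread between these libraries, which may be technical.

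Complexes I and II pass electrons from NADH and succinate to ubiquinone, complex III passes them to cytochrome c, and complex IV passes them to oxygen. Complexes I, III and IV pump protons as they do so, and complex V, the ATP synthase, lets the protons flow back to make ATP. Most subunits are encoded in the nucleus and imported, a few are encoded by mitochondrial DNA, and both kinds are needed in one complex. Enterocytes use the ATP for nutrient and ion transport.

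Many nuclear OXPHOS promoters are known to hold sites for NRF1, for the ETS-family factor GABP and for YY1, so the start regions of the members that the results turn on are shown first. The windows run from 150 bases before the RefSeq transcription start to 30 bases after it, in GRCh38.p14, and are printed 5′ to 3′ on the gene's own strand. Capitals mark a match to GCGCA and GCGC with any 1 base between them (NRF1), to CCGGAAG (ETS) or to ATGGCGG (YY1), on either strand. UQCC2 and NDUFA2 are the members whose treated and untreated values did not overlap. COX6A1, COX8A and COX6B1 are the complex IV genes that varied most between libraries, and CYCS is the mobile electron carrier. No printed window has overlapping motif matches.
UQCC2, chr6:33711671-33711850, minus strand: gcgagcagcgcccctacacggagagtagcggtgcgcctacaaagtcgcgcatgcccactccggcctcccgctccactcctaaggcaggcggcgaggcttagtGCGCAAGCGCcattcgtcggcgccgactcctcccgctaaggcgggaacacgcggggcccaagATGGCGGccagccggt
NDUFA2, chr5:140647601-140647780, minus strand: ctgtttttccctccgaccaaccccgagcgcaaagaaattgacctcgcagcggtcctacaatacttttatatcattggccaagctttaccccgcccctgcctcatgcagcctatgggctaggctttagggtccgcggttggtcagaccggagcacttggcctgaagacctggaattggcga
COX6A1, chr12:120437963-120438142, plus strand: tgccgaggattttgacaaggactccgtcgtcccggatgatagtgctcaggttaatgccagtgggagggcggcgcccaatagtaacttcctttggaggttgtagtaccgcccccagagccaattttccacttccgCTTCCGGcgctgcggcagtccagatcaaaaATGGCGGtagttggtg
COX8A, chr11:63974470-63974649, plus strand: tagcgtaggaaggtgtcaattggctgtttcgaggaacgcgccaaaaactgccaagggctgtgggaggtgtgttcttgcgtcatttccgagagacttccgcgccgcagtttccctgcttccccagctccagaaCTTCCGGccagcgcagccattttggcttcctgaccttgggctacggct
COX6B1, chr19:35648173-35648352, plus strand: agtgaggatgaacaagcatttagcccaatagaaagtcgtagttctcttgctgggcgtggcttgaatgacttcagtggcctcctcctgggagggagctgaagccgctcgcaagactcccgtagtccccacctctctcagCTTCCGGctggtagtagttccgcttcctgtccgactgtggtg
CYCS, chr7:25125231-25125410, minus strand: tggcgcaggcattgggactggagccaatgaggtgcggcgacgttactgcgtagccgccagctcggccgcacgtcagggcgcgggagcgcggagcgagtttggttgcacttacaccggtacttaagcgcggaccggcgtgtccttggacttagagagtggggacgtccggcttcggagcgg

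In the UQCC2 window the NRF1 letters start at position -48 from the start site and the YY1 letters at position 15. COX6A1 has the ETS letters on the minus strand at -16 and YY1 letters at 15. COX8A and COX6B1 have the ETS letters on the minus strand at -18 and -12. These letters were not found in the NDUFA2 and CYCS windows.

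Across the set, 72 members were matched to 85 RefSeq start windows of 300 bases. The YY1 letters were in 28.2% of these windows, in 5.55% of all 35116 windows in the table and in 6.99% of protein-coding windows. For the ETS letters these shares were 24.7%, 10.3% and 12.8%, and for the NRF1 letters 22.4%, 5.78% and 7.38%. Any of the 3 motifs was present in 57.6% of member windows, against 18.7% of all windows and 23.4% of the 22198 windows of protein-coding genes. The median GC content was 60.0% in member windows and 62.3% in protein-coding windows. A match is only a string of letters and was not tested as a binding site.

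The 6 libraries held between 15608937 and 18324599 gene counts, of which the members took 0.811% to 0.942%. Mitochondrially encoded genes took 7.01% to 8.11% of counts in 5 libraries and 4.16% in untreated 1. On the first principal component of all tested genes, which held 50.1% of the variance, untreated 1 scored -56.0, untreated 3 scored 43.2 and the treated libraries lay between them. Epithelial identity was read from 12 fixed markers. Of these, 10 passed the filter, among them EPCAM, CDH1 and KRT8, while KRT20 and LGALS4 were under 1 CPM (a library-scaled count, CPM for short) in every library. Of 14 macrophage markers, 5 passed the filter and none was called, and CD68, ITGAX and TYROBP had no count in any library. The summed macrophage markers were at 17.1 to 21.5 CPM in untreated and 13.4 to 20.4 CPM in treated libraries.

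Most nuclear OXPHOS genes were expressed well above the typical gene. The deposited FPKM values, which divide a count by gene length and library size, were used to compare genes with each other. The 85 members that passed the filter on low counts had a median level of 24.2 FPKM, against 5.90 for 12533 tested protein-coding genes, of which 85.2% lay below the members' median. A total of 68 members had a mean of at least 10 FPKM. The members are also short, with a median length of 2430 bases against 5112 for the protein-coding genes.

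The most abundant transcript per length was ATP5F1B, the catalytic beta subunit of the ATP synthase, at 515.6 FPKM. COX8A, a small subunit of complex IV, followed at 173 FPKM, ATP5F1C at 168 FPKM and NDUFS5, a small accessory subunit of complex I, at 153 FPKM. The rank of COX8A rested on untreated 3 (339 FPKM) and treated 3 (192 FPKM). In every other library it was at 123 to 131 FPKM, below both ATP5F1C and NDUFS5. Another entry on the same strand covers 99.3% of its span. In complex III the core protein UQCRC1 led with 109 FPKM. Complex II was narrow, from 15.4 FPKM for SDHC to 40.0 FPKM for SDHD, its 2 membrane anchors. This order rests on listed lengths of 14160 and 2838 bases. By CPM, SDHC was above SDHD, with untreated means of 219 and 115.

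Some essential subunits were listed at a low FPKM. NDUFV2, a core subunit of complex I, was listed at 1.21 FPKM, while its partner NDUFV1 was at 38.2 FPKM. NDUFA7 was at 0.444, NDUFA13 at 0.488, NDUFA11 at 1.66 and NDUFA9 at 2.93 FPKM. These 5 genes share a feature of the annotation: another gene entry on the same strand covers 96.3% to 99.99% of each one's span. Of the 9 tested members under 5 FPKM, 5 were at least 50% covered in this way, against 9 of the other 76. Low without such cover were NDUFS7, another core subunit of complex I (2.36 FPKM), UQCRHL (1.54), ATP5S (1.95) and NDUFV3 (4.13). The covering entries themselves had no count for NDUFV2, NDUFA7, NDUFA9 and NDUFA11, and 0.43 CPM for NDUFA13. No source used here says how a read that matches more than 1 gene was counted. For NDUFA9 the low FPKM also rests on a listed length of 10391 bases. By CPM it had means of 31.97 untreated and 29.51 treated. NDUFB3, with a listed length of 1103 bases, had means of 30.07 and 25.77 CPM and was at 25.1 FPKM. The levels of the 5 genes are uncertain, and the part of the overlap in them was not tested.

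**Figure D1:**
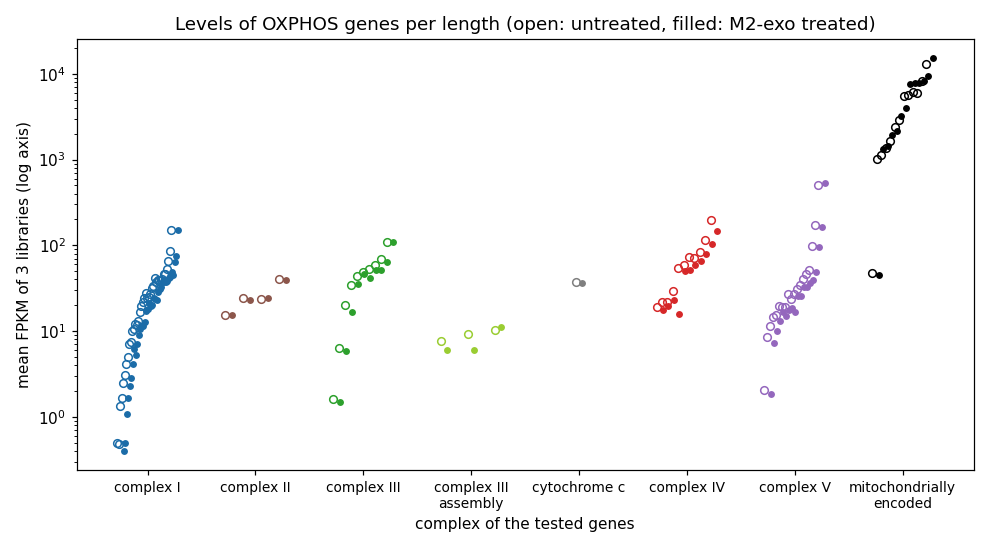
Mean FPKM of each tested nuclear gene by complex and of the mitochondrially encoded subunits, on a log axis, with open symbols for the 3 untreated and filled symbols for the 3 treated libraries. Most nuclear members lie above 10 FPKM in both groups, a tail that includes NDUFA7 (0.444 FPKM) lies below 5, and 12 of the 13 mitochondrially encoded subunits lie above every nuclear member.

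Tissue-type isoforms differed in level. COX6A2 (muscle type), COX7B2 and COX8C (testis type) had 0 counts in all 6 libraries. As an approximate upper limit for a count of 0, 3 counts were taken, which correspond to 0.164 to 0.192 CPM. COX6B2 had 6, 3 and 5 counts in the untreated and 0, 0 and 4 in the treated libraries. COX7A1 had 3, 4 and 4 counts against 0, 5 and 4. Their widely expressed counterparts carried the expression: COX7A1 made up at most 0.550% of the summed FPKM of COX7A1 and COX7A2, and COX6B2 at most 0.247% with COX6B1. ATP5MGL, a copy of ATP5MG (0, 3 and 0 counts against 0, 0 and 0), and the read-through ATP5MF-PTCD1 (0, 4 and 3 against 4, 0 and 2) complete the 7 members that did not pass the filter.

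The main question was whether M2-exo changed these transcripts. With edgeR's quasi-likelihood test on the counts (3 treated against 3 untreated libraries, Benjamini-Hochberg adjustment over 15084 genes), 0 of the 85 tested members passed an adjusted p of 0.05. The background is the same: 0% of all tested genes passed. DESeq2 and limma-voom also called 0 members. At an unadjusted p under 0.05, 2 members were lower and 0 higher, that is 2.35% of members against 0.736% of all genes.

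The 2 members were UQCC2 and NDUFA2, which were also the only tested members whose treated libraries all lay below the untreated ones. This is 2.35% of members against 2.3% of all genes, a share near the background. No member had all treated libraries above the untreated ones, as 1.65% of all genes did, and 3.95% of all genes were separate in either direction. For 44 members (51.8%) every treated value lay within the untreated range, against 43.6% of all genes.

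The direction was less even than the calls. Of the 85 members, 67 (78.8%) had a log2 fold change below 0, against 52.9% of all genes, with a median of -0.09 against -0.01. The range ran from -0.91 for COX6A1 to 0.27 for NDUFA3. Differences under 0.1 on the log2 scale were found for 40 members and for 7585 of all 15084 tested genes. The 95% interval reached a median of 0.43 to each side. A 2-fold change, up or down, lay outside this interval for 72 members, and for 11440 of the 15084 tested genes. For a 1.5-fold change these numbers were 46 and 6825. In simulated counts of this design, edgeR recovered 58.0% of 2-fold and 6.0% of 1.5-fold changes, so changes under 2-fold were often not detectable. Each simulated gene was drawn on its own, without the movement that genes shared between libraries here. Changes were planted in a set of genes, all above a low-count limit, so these shares may be too high for members of low count, such as NDUFA7 and NDUFA13. In bulk RNA, a change in the number of cells that express a gene and a change in RNA per cell cannot be told apart.

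**Figure D2:**
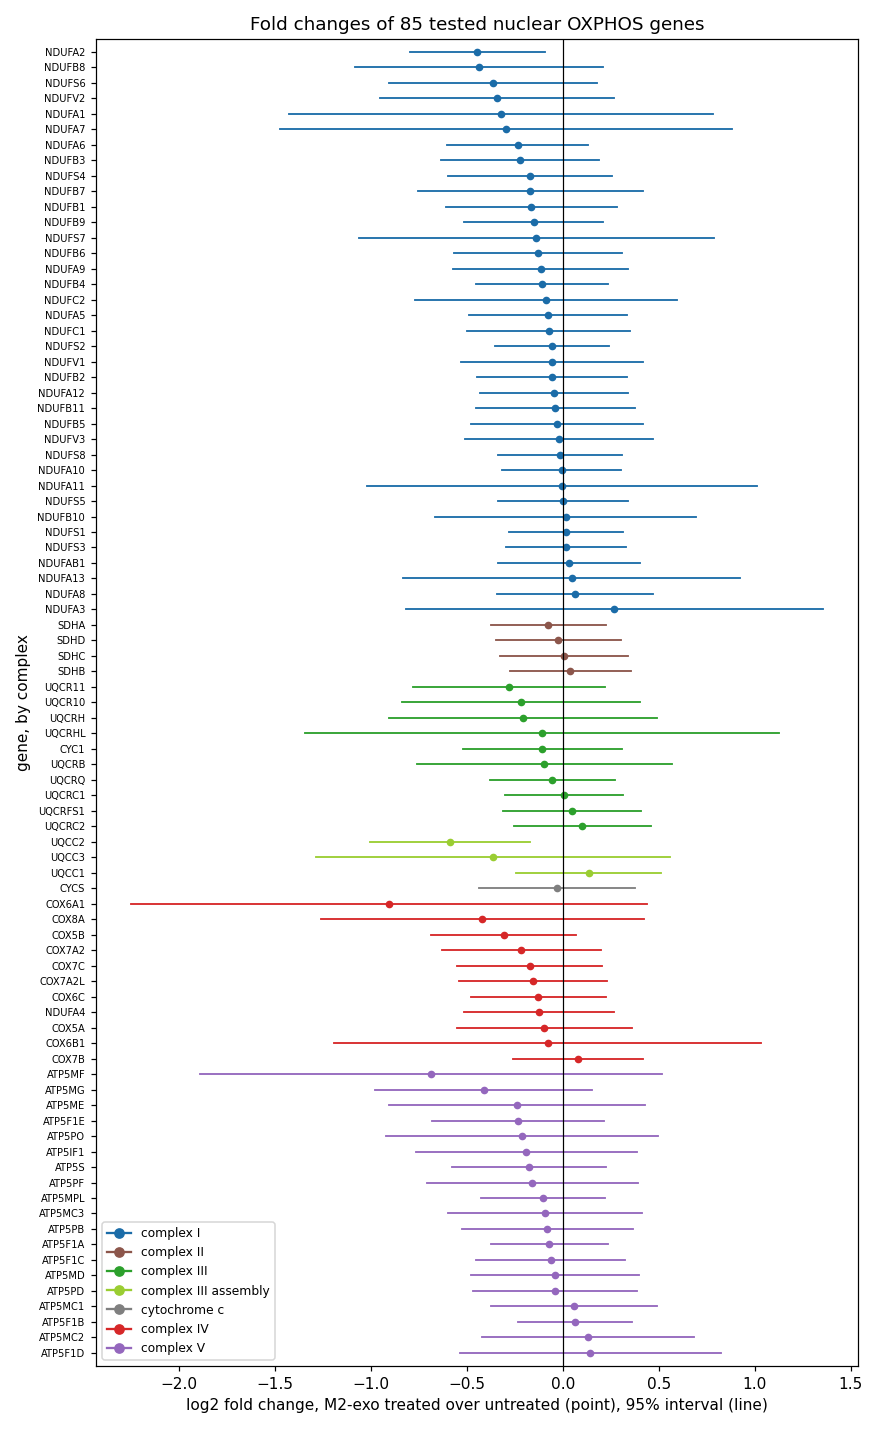
Log2 fold change of treated over untreated Caco-2 cells for the 85 tested genes, ordered by complex, with 95% intervals as lines. Points lie mostly just left of 0, from -0.91 (COX6A1) to 0.27 (NDUFA3), and the widest intervals belong to genes such as COX6A1 and ATP5MF that varied most between libraries.

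The left-of-zero direction depended on which libraries were included, most of all on untreated 3. Without untreated 3, 45 of 85 members (52.9%) were below 0, against 49.2% of all genes, and the median was -0.02. Without untreated 1, 54 (63.5%) were below 0, against 50.6% of all genes. Without untreated 2, 67 were again below 0 and the median was -0.16. Without treated 1, 59 (69.4%) were below 0, against 48.9% of all genes, and without treated 3, 58 (68.2%), against 50.3%. Leaving out treated 2 gave 67. Below 0 in all 6 fits that each left out 1 library were 18 members (21.2%), against 15.5% of all genes, and above 0 in all of them were UQCRC2, UQCC1 and COX7B.

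The libraries show the same thing directly. The median deviation of the members from their own 6-library mean was 0.11, -0.11 and 0.17 on the log2 scale in untreated 1, 2 and 3. It was -0.04, -0.02 and -0.06 in treated 1, 2 and 3. The treated libraries thus lay between the untreated ones, with untreated 2 the lowest of all 6. Untreated 1 or 3 was the highest library for 71 members (83.5%), against 57.6% of all genes. The SD of log2 CPM was larger in the untreated group for 71 members, with medians of 0.29 untreated and 0.17 treated, and for 72.0% of all genes.

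**Figure D3:**
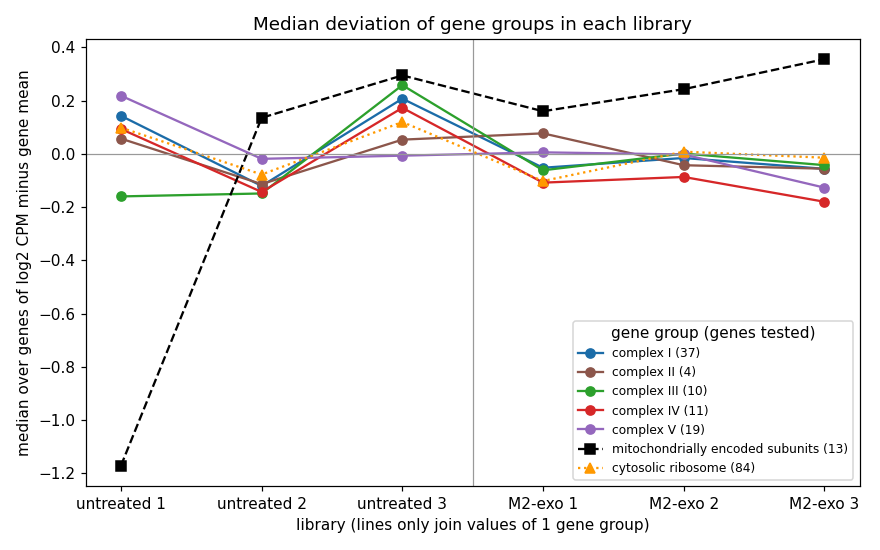
Median over genes of log2 CPM minus the gene's own mean, for nuclear OXPHOS genes by complex and for comparison groups, in each of the 6 libraries. The nuclear members together sit at 0.11, -0.11 and 0.17 in the untreated and between -0.06 and -0.02 in the treated libraries, while the mitochondrially encoded subunits drop to -1.17 in untreated 1.

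Complex I, the NADH dehydrogenase, had 30 of 37 members below 0, with a median of -0.07. Without untreated 3 these were 22 of 37 and -0.02. With all libraries, the 7 core subunits, which hold the flavin and the iron-sulfur clusters, had a median of -0.06, and the 30 accessory subunits -0.08. NDUFS1, the largest core subunit, was among the genes with the smallest differences. It was at 233, 195 and 198.6 CPM in untreated 1, 2 and 3 and at 223, 207 and 205 CPM in treated 1, 2 and 3, a log2 fold change of 0.02. NDUFV1, which binds NADH, was at 138, 196 and 261 CPM untreated and 195, 193 and 186 CPM treated (-0.06). For both genes all treated values lay within the untreated range. NDUFS5 was at 74.9, 83.0 and 95.2 CPM against 80.2, 93.0 and 79.9 CPM, with a log2 fold change of 0.00.

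NDUFA2, an accessory subunit with a thioredoxin-like fold in the arm that faces the matrix, was the only complex I gene with separate groups. It was at 40.4, 39.2 and 44.5 CPM untreated and at 33.2, 29.7 and 28.1 CPM treated. Every treated library was below every untreated one. The untreated mean was 41.4 ± 2.80 CPM and the treated mean 30.4 ± 2.58 CPM (SD, n = 3 each). The log2 fold change was -0.45 (SE 0.16), with an unadjusted p of 0.0183 and an adjusted p of 0.9999 by edgeR's quasi-likelihood test. It stayed between -0.49 and -0.37 when each library was left out. On the opposite strand, TMCO6 covers 66.1% of its span and had a mean of 22.7 CPM. No source used here states whether counting used strand, so reads of these 2 genes may not be separated.

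Among the other complex I members, NDUFB8, an accessory subunit of the membrane arm, was at 21.0, 9.90 and 11.7 CPM untreated and 11.4, 9.88 and 10.1 CPM treated (-0.44). Only untreated 1 stood apart. NDUFA3 had the highest log2 fold change of all members, 0.27, from 5.91, 10.6 and 21.2 CPM untreated and 8.27, 13.3 and 24.0 CPM treated. In both groups library 1 was the lowest and library 3 the highest, and the groups overlapped. NDUFA8, an accessory subunit with twin cysteine motifs, was at 34.0, 36.3 and 49.1 CPM against 43.3, 42.7 and 38.8 CPM (0.06). NDUFA7, at 0.572, 0.951 and 0.563 CPM against 0.450, 0.919 and 0.334 CPM, was too low to compare.

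Complex II, the succinate dehydrogenase, is the only complex with no mitochondrially encoded subunit. Among whole complexes, its genes had the lowest median SD of log2 CPM in the untreated group, 0.14. The median was 0.27 for complexes I and IV, 0.35 for III and 0.39 for V. The 7 core subunits of complex I taken alone were also at 0.14. In complex II, all genes were close between groups. The flavoprotein SDHA was at 203, 185 and 231 CPM untreated and 198.7, 195.7 and 193 CPM treated (log2 fold change -0.08). The iron-sulfur subunit SDHB was at 60.5, 54.8 and 60.4 CPM against 59.0, 64.6 and 57.0 CPM (0.04). SDHC was at 247, 209 and 200.5 CPM against 249.7, 211 and 198 CPM (0.00), and SDHD at 121, 104 and 121 CPM against 128, 102 and 111 CPM (-0.02). The groups overlapped for all 4 genes.

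Complex III, the cytochrome bc1 complex, had 7 of 10 members below 0 and a median of -0.10, which was 0.08 with 3 of 10 below 0 without untreated 3 and 0.00 without treated 1. Its core proteins were level: UQCRC1 was at 317, 389 and 354 CPM untreated and 355, 386 and 325 CPM treated (0.01), and UQCRC2 at 268.5, 226 and 194 CPM against 268, 253 and 217 CPM (0.10). The redox subunits CYC1 (cytochrome c1) and UQCRFS1 (the Rieske iron-sulfur protein) had log2 fold changes of -0.11 and 0.05. UQCRFS1 was at 144, 113 and 105 CPM untreated and 129.7, 131 and 113 CPM treated, within the untreated range. The most negative were the small subunits UQCR11, at 56.5, 37.5 and 36.2 CPM against 43.4, 32.1 and 31.6 CPM (-0.28), and UQCR10, at 33.2, 38.9 and 71.5 CPM against 36.5, 40.2 and 46.9 CPM (-0.22). UQCR11 was highest in untreated 1 and UQCR10 in untreated 3, and the treated values overlapped the other untreated libraries. UQCRHL, an intronless near-copy of the hinge protein gene UQCRH, was at 2.48, 1.34 and 6.75 CPM against 2.08, 3.04 and 4.68 CPM (-0.11). It took 1.49% to 3.21% of their summed FPKM, and reads of the pair may not be separated.

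UQCC2, an assembly factor needed for the translation and stability of mitochondrially encoded cytochrome b, had the smallest unadjusted p of the members. It was at 47.1, 35.6 and 47.0 CPM untreated and at 24.3, 30.4 and 31.5 CPM treated. All 3 treated libraries were below the lowest untreated one. The untreated mean was 43.2 ± 6.62 CPM and the treated mean 28.7 ± 3.86 CPM (SD, n = 3 each). The log2 fold change was -0.59 (SE 0.18, 95% interval -1.01 to -0.17). By edgeR's quasi-likelihood test the unadjusted p was 0.0107 and the adjusted p 0.9999. Leaving out each library gave -0.69 to -0.46. On the opposite strand, ITPR3 covers 13.1% of its span and had a mean of 183 CPM, well above UQCC2 itself, so the same limit on strand holds here.

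The other assembly factors in the set did not share this. UQCC1, which acts with UQCC2, was at 69.4, 75.7 and 64.3 CPM untreated and 89.8, 77.3 and 62.8 CPM treated (0.14). UQCC3, which acts after them on cytochrome b, was at 9.97, 12.9 and 32.5 CPM against 11.5, 13.3 and 18.3 CPM (-0.36), or 0.34 without untreated 3. Both overlapped between groups. Cytochrome b itself (MT-CYB) was at 890.4, 2236 and 2634 CPM untreated and 2322, 2312 and 2866 CPM treated (0.38), with untreated 1 the low library.

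Cytochrome c, the soluble carrier between complexes III and IV, was at 167, 129 and 206 CPM in the untreated and 151, 166 and 176 CPM in the treated libraries. All treated values lay within the untreated range, and the log2 fold change of CYCS was -0.03 (SE 0.18).

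Complex IV, the cytochrome c oxidase, had the largest share of negative values among the complexes: 10 of 11 tested members were below 0, with a median of -0.16. Without untreated 3 these were 6 of 11 (54.5%) and -0.05, a smaller share than in complex I (59.5%) and complex V (63.2%). Without untreated 1 they were 8 of 11 and -0.06. COX6A1 had the lowest log2 fold change of all members, -0.91 (SE 0.60), with an unadjusted p of 0.162 by edgeR's quasi-likelihood test. It was at 21.5, 15.6 and 82.1 CPM untreated and 14.5, 14.5 and 34.6 CPM treated. Untreated 3 alone carried that difference, and without it the log2 fold change was 0.21.

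COX8A had the same shape, with 67.3, 62.9 and 174 CPM untreated and 63.1, 66.2 and 98.3 CPM treated (-0.42, or 0.24 without untreated 3). COX6B1, the subunit that faces the intermembrane space, was at 37.7, 52.8 and 146 CPM against 51.3, 54.1 and 119 CPM (-0.08). In all 3 genes the third library of each group was the high one, and the groups overlapped.

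The other complex IV genes were steadier. COX5B was at 99.7, 91.5 and 130.5 CPM against 88.8, 92.5 and 78.5 CPM (-0.31, unadjusted p 0.0992 by edgeR). COX7A2 was at 145, 98.2 and 101 CPM against 109.9, 99.2 and 87.1 CPM (-0.22), and COX7A2L, which joins complexes III and IV in supercomplexes, was at 129, 98.2 and 100.3 CPM against 112, 99.4 and 83.1 CPM (-0.16). COX7B, at 59.4, 67.8 and 71.1 CPM against 62.1, 71.4 and 75.8 CPM, was the only complex IV member above 0 (0.08). COX4I1 lies outside the symbol rule but is a regulatory subunit of complex IV. It was at 497, 386 and 469 CPM untreated and 370.1, 367 and 411 CPM treated (-0.24), overlapping at 1 treated library.

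**Figure D4:**
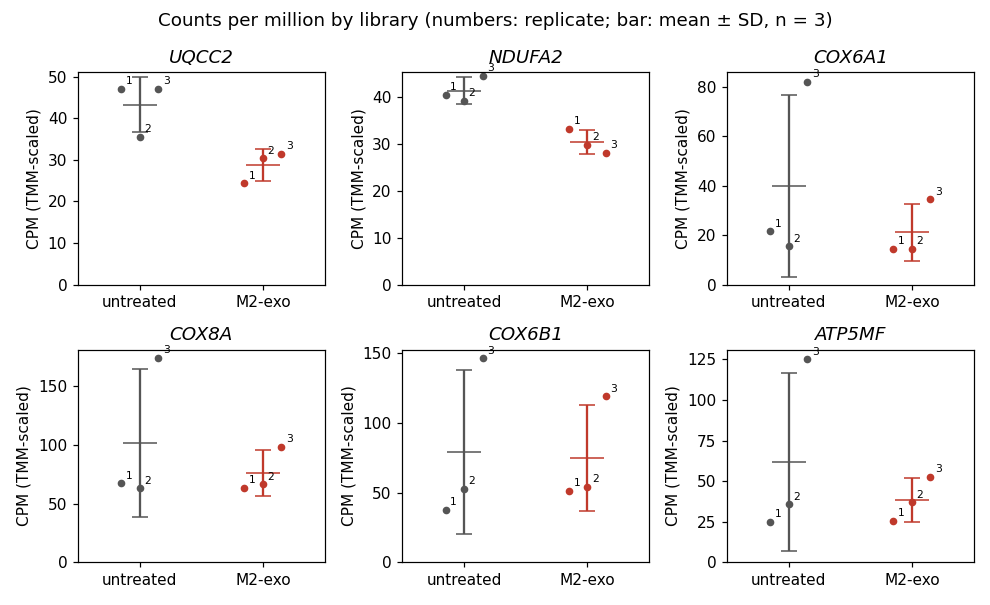
CPM of 6 genes in each library, numbered by replicate, with the mean and SD of 3 libraries per group. UQCC2 and NDUFA2 have separate groups, whereas COX6A1, COX8A, COX6B1 and ATP5MF overlap and are highest in replicate 3 of both groups (COX6A1 at 82.1 CPM in untreated 3 and 34.6 CPM in treated 3).

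Complex V, the ATP synthase, had 15 of 19 tested members below 0 and a median of -0.09. Without untreated 1, 9 of 19 were below 0 and the median was 0.01, and without treated 3 the median was -0.03. With all libraries, the F1 head, where ATP is made, had a median of -0.06 over 5 genes. Its beta subunit ATP5F1B was at 1208, 1192 and 1142 CPM untreated and 1379.8, 1241 and 1083 CPM treated (0.06). ATP5F1D, the delta subunit, was at 29.9, 54.9 and 74.3 CPM against 46.5, 58.5 and 70.9 CPM (0.14).

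The 3 genes of the c ring, the rotor that protons turn, encode the same mature protein with different import sequences. Their shares of the ring's FPKM rest on listed gene lengths of 2615 bases for ATP5MC1, 3991 for ATP5MC2 and 6780 for ATP5MC3. Per length, ATP5MC1 gave 42.0%, 45.2% and 40.1% of the ring's FPKM in untreated and 49.9%, 43.1% and 37.3% in treated libraries. ATP5MC2, at 40.5, 68.3 and 75.4 CPM untreated and 63.0, 56.4 and 82.3 CPM treated (log2 fold change 0.13), gave 16.8% to 24.8% and ATP5MC3 30.1% to 41.3% over all 6. The ranges of the 2 groups overlapped for each gene, and ATP5MC2 had the smallest FPKM share in every library. By CPM, which does not divide by length, ATP5MC3 was highest, with means of 186 untreated and 175 treated. ATP5MC1 was at 81.8 and 85.2 CPM and ATP5MC2 at 61.4 and 67.2 CPM.

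Within complex V the membrane subunits of Fo outside the ring were lowest, with all 5 genes below 0 and a median of -0.24, and the 4 genes of the peripheral stalk, which holds the head still, were also all below 0 (median -0.12). Without untreated 1, all 4 stalk genes were above 0 (median 0.10), and 3 of the 5 Fo genes were below 0 (median -0.12). Without treated 3, 1 stalk gene was below 0. ATP5MF was at 24.9, 35.8 and 125 CPM untreated and 25.7, 37.1 and 52.6 CPM treated (-0.69, or 0.35 without untreated 3). ATP5MG, a subunit at the dimer interface, was at 87.2, 42.1 and 74.0 CPM against 57.5, 44.9 and 50.4 CPM (-0.41), with untreated 2 the lowest library. ATP5IF1, the inhibitor of ATP hydrolysis, had a log2 fold change of -0.19, from 22.6, 29.9 and 46.9 CPM against 26.1, 31.4 and 29.6 CPM. ATP5S, also known as coupling factor B, had the lowest FPKM of the tested complex V genes (1.95), with a listed length of 11297 bases. It was at 26.4, 22.4 and 21.9 CPM untreated and 22.7, 18.2 and 21.7 CPM treated (-0.17). By CPM, ATP5ME was lower, with means of 8.08 untreated and 6.83 treated.

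Members with overlapping annotation varied more between libraries than the others. Of the 85 tested members, 14 were covered over at least 50% of their span by another entry on the same strand, a limit set after the values had been seen. Among them are COX6A1, COX8A, UQCR11, NDUFB8, NDUFC2, ATP5PO, ATP5MF and ATP5MG. Between the highest and the lowest library they differed by a median of 2.15-fold, against 1.53-fold for the other 71, and 9 of the 14 differed at least 2-fold, against 15 of 71. Their median log2 fold change was -0.29 with 13 of 14 below 0, while the other 71 had a median of -0.08 with 54 (76.1%) below 0. Without untreated 3, 8 of the 14 were below 0 with a median of -0.14, and without untreated 1, 10 of 14 with -0.15. Whether shared reads set this was not tested.

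A second feature that the rule did not use was the contrast between the third and the first library of a group. In untreated 3, 14 members (16.5%) were at least 2-fold above untreated 1 and 3 (3.53%) at least 2-fold below, shares near those of all genes (14.1% and 2.89%). The 14 were NDUFS7, NDUFA3, NDUFA11, NDUFB10, UQCRH, UQCRHL, UQCR10, UQCC3, COX6A1, COX6B1, COX8A, ATP5F1D, ATP5MF and ATP5IF1. The 3 were NDUFC2, ATP5PO and ATP5ME. In treated 3 against treated 1 the same direction held for 68 members, 30 up and 38 down (35.3% and 44.7%, against 33.5% and 35.0% of all genes). Across the 85 members, the Spearman correlation of the 2 log2 differences was 0.77, and across all genes it was 0.46. The 4 libraries behind these values are single samples, and genes are not independent.

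Position went with this contrast. The 10 tested members on chromosome 19 had a median log2 difference of 1.11 between untreated 3 and untreated 1, and of 0.60 between treated 3 and treated 1. The 75 other members had medians of 0.00 and -0.12. On chromosome 19, 7 of the 10 were above 0 in both differences, and NDUFA7, UQCRFS1 and UQCR11 were below 0 in both. The 868 tested protein-coding genes of chromosome 19 had a median of 0.74 for untreated 3 over untreated 1, with 77.3% above 0, against 46.3% of other protein-coding genes.

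**Figure D5:**
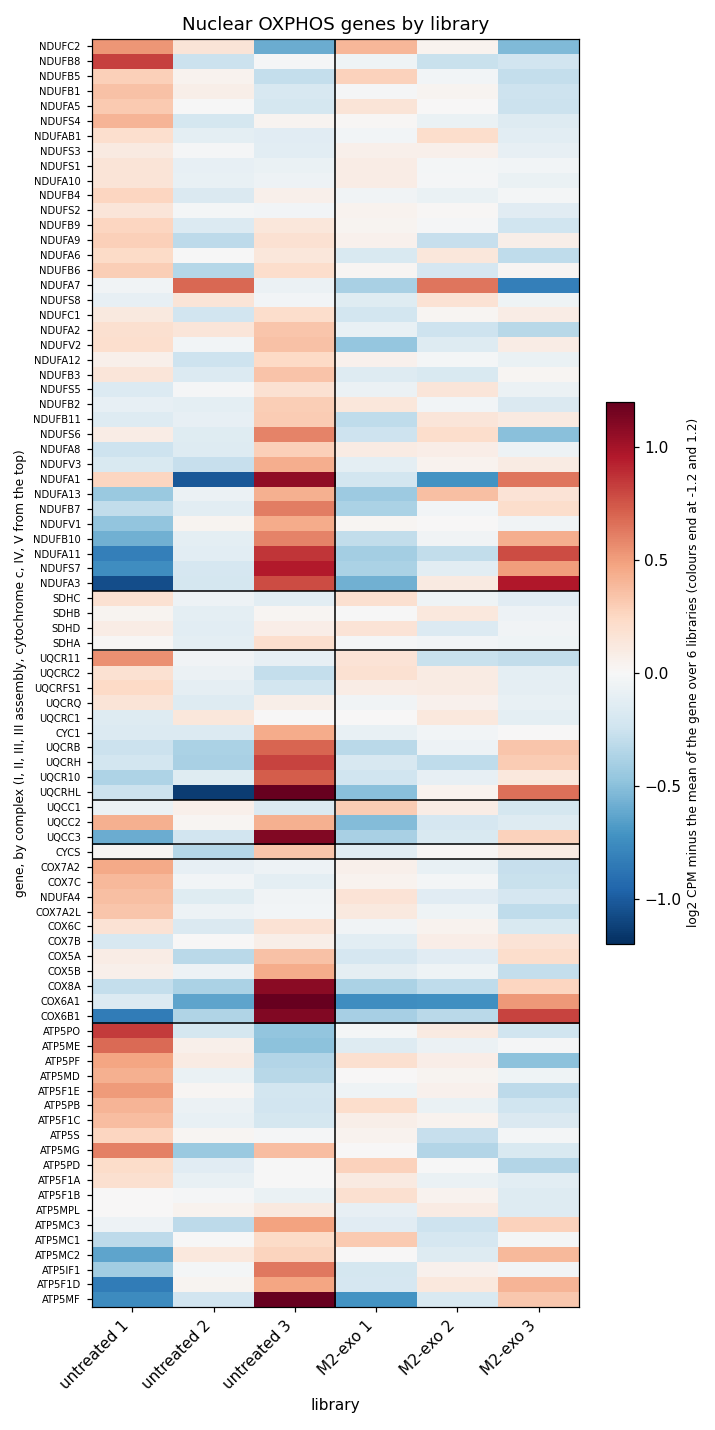
Deviation of log2 CPM from each gene's 6-library mean, with the 85 tested genes in rows by complex and the libraries in columns. Untreated 1 and untreated 3 hold most of the strong colours (the highest library for 35 and 36 members), and the treated columns are paler.

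Most mitochondrially encoded partners had values above 0. Of the 13, 12 had a log2 fold change above 0 and the median was 0.39, while MT-ATP8, which overlaps MT-ATP6, was at -0.11. Without untreated 1 the median was 0.09 with 3 of 13 below 0. None was called by edgeR. Untreated 1 was the low library, with a median deviation of -1.17. Per subunit, mitochondrially encoded complex I genes were listed at 59.5, 144 and 107 times the mean FPKM of the nuclear ones in untreated 1, 2 and 3, and at 151, 145 and 153 times in treated 1, 2 and 3. For complex IV the ratios were 99.1, 207 and 114 against 191, 199.5 and 184. For complex I all treated ratios lay just above untreated 2, the highest untreated one, and for complex IV the groups overlapped. The complex I means were 104 ± 42.2 untreated and 149.7 ± 3.83 treated (SD, n = 3 each), with the untreated libraries spread from 59.5 to 144. These ratios were not tested, and they move with the low mitochondrial share of untreated 1. They also move with the nuclear mean of untreated 3, the highest of all libraries (31.4 FPKM in complex I and 89.9 FPKM in complex IV).

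Assembly factors outside the symbol rule had a median near that of the subunits. Of 46 tested factors, 33 were below 0 and the median was -0.06, with none called. Without treated 3, 19 of 46 were below 0 and the median was 0.02, and without untreated 1 it was -0.01 with 24 below 0. Complex I factors had 13 of 14 below 0 (median -0.07) and complex IV factors 16 of 22 (median -0.08). Without treated 3 these were 6 of 14 (median 0.03) and 9 of 22 (median 0.02). Within complex IV the factors ranged from -0.47 for PET117, at 3.11, 1.29 and 3.15 CPM against 1.13, 1.78 and 2.51 CPM, to 0.26 for COX18, a membrane insertase for COX2. COX18 was at 12.6, 14.0 and 13.6 CPM untreated and 14.2, 17.6 and 16.2 CPM treated, above every untreated library but not called (unadjusted p 0.193 by edgeR). The only other factor with all treated libraries above the untreated ones was ATPAF1, a chaperone for the F1 head, at 41.9, 40.5 and 32.3 CPM untreated and 50.1, 43.7 and 42.1 CPM treated (0.25). These are 2 of 46 factors, against 1.65% of all genes. Complex II, III and V factors had 2 of 4, 1 of 3 and 1 of 3 below 0.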

How the data were processed

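The authors deposited whole-number counts per Ensembl gene. The submitters' processing notes name CASAVA, HISAT2, featureCounts and GRCh38, with no versions. Strand setting and the handling of ambiguous reads are not stated there. Per gene, the deposited FPKM values are each count divided by gene length and a constant per library. Over the deposited counts and FPKM values together, 6 columns match no sample. These columns, and both exosome libraries, were not used. The members and lists were chosen with earlier results of these data known.

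For 3 untreated and 3 treated libraries, edgeR 4.0.16 (R 4.3.3) tested the counts (filterByExpr, which left 15084 genes, TMM, quasi-likelihood F test, 2-sided, Benjamini-Hochberg threshold 0.05). CPM are TMM-scaled. Deviations use log2 CPM with a prior count of 2. Totals ranged from 15608937 to 18324599 counts. Members named were the 2 lowest and 2 highest log2 fold changes of each complex, those with an unadjusted p under 0.05, the highest and lowest FPKM of each complex, isoform groups and untested members, and a few others were chosen after their values were seen; not every one is given library by library. Alternatives were DESeq2 1.42.0, limma-voom (limma 3.58.1), a mean CPM filter of 1, no filter, total counts, RLE factors, log2(FPKM + 1), log2(FPKM + 0.1), a replicate block and each library left out. On simulated counts for the 15084 genes, each drawn independently, edgeR called 51 of 74420 unchanged genes and recovered 90.4% of 3-fold changes. Start windows came from RefSeq (GRCh38.p14) by symbol.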

Additional observations from a re-analysis of the deposited data

How the results depend on the processing

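No member was called under any alternative run. Over the alternatives that kept all libraries, 61 to 69 members were below 0 and the members' median log2 fold change was between -0.09 and -0.06. Leaving out 1 library gave 45 to 67 members below 0, with 45 without untreated 3. It gave medians of -0.23 to 0.082 for complex III and of -0.56 to 0.092 for complex III assembly (UQCC1 to UQCC3), both highest without untreated 3. Non-overlapping members then numbered 0 to 3 higher and 3 to 15 lower, with 15 (17.6%) lower without untreated 2, where 5.26% of all genes were. Over these fits, with 2 libraries in 1 group, 4.62% to 8.22% of all genes were separate and lower and 4.1% to 9.86% separate and higher. With no filter, 3 genes were called higher (EGR1, BOLA2B and U2AF1L5) and 3 lower (C6orf48, SMIM11A and RN7SL2), and BOLA2B alone, 1 gene, was called higher without treated 2. None of these is a member, and the names were chosen after the values were seen. For 34 named members, 58 of 509 alternative values changed sign, 14 of them without untreated 3. Sample numbers were not taken as pairs. Deviations of same-numbered libraries correlated at 0.28, -0.06 and 0.48, and untreated 2 correlated better with treated 1 (0.18). Untreated 1 correlated with treated 3 at -0.37, and untreated 3 with treated 1 at -0.42. On the first principal component treated 1, 2 and 3 scored -13.4, 1.89 and 23.8, the same order as in the untreated group. Whether the numbers mark shared handling was not tested. With the replicate block, 62 members were below 0, the median was -0.07 and 0 were called. With 3 libraries a group, changes under 2-fold were often beyond the reach of the test, and members of low count or overlapping annotation were the least precise.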

Other observations

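Mitochondrial translation and cytosolic translation genes had a similar direction to the OXPHOS members. Of 76 tested mitochondrial ribosome genes, 54 were below 0 (median log2 fold change -0.05), and of 84 cytosolic ribosome genes, 64 (median -0.09), with none called by edgeR. Without treated 3, 38 mitochondrial ribosome genes were below 0 (median 0.00), and without untreated 3, 47 cytosolic ribosome genes (median -0.05). MRPL51, a large-subunit protein of the mitochondrial ribosome, had an unadjusted p of 0.0479 by edgeR, at 122, 86.1 and 143 CPM untreated and 87.7, 93.0 and 78.2 CPM treated. The groups overlapped.

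Regulators of OXPHOS transcription and of mitochondrial DNA were level as a group, with 6 of 13 below 0 and a median of 0.00. TFAM, which packages and transcribes mitochondrial DNA, had a log2 fold change of -0.03, and GABPA, the DNA-binding subunit of GABP, 0.18. ESRRA, an orphan nuclear receptor that drives OXPHOS genes, was at 21.3, 61.1 and 128 CPM untreated and 56.3, 70.4 and 87.8 CPM treated. The groups overlapped. PPARGC1A, the coactivator, was under 1 CPM in every library.

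Members with and without the printed motifs had close median log2 fold changes: -0.07 and -0.09 for the NRF1 letters (18 and 50 members), -0.12 and -0.08 for the ETS letters (20 and 48) and -0.13 and -0.08 for the YY1 letters (22 and 46).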
